A study of Homo sapiens with 8 samples.

Results

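Aminoacyl-tRNA synthetases are the enzymes that join each amino acid to its transfer RNA. The genes described here are 36 of the 58735 genes of the deposited count table: 20 that encode cytosolic synthetases and 16 that encode mitochondrial ones. Their rows were found by gene symbol, and every symbol matched exactly 1 row. All 36 passed the filter on low counts (17413 genes in all passed). The symbols are the older ones of the table, so WARS stands for the gene now named WARS1.

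The study compared 4 untreated cultures with 4 cultures given glucose oxidase at 20 mU per ml for 24 h. All 8 were cultures of SV-HUC1, a human urothelial line immortalised with SV40, grown in medium with fetal bovine serum, so both groups carry the SV40 immortalisation and the values describe 1 cell line. Glucose oxidase turns glucose and oxygen into gluconolactone and hydrogen peroxide. No group received peroxide alone or inactive enzyme, so peroxide and the loss of glucose or oxygen cannot be told apart. Cultures carry the replicate numbers 1 to 4 in each group. The labels do not say whether equal numbers in the groups mark the same experiment.

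Cells keep separate synthetase sets for the cytosol and the mitochondrion, and both are encoded in the nucleus. Most amino acids have 1 gene for each compartment, but GARS and KARS encode both forms of the glycine and lysine enzymes, EPRS joins the glutamate and proline enzymes in 1 protein, and the cytosolic phenylalanine enzyme is built from FARSA and FARSB. By the architecture of the active site the enzymes fall into class I and class II. Many cytosolic synthetase genes are textbook targets of ATF4, the transcription factor of the amino acid and integrated stress response, and WARS is known as a gene induced by interferon gamma.

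Total counts ran from 21437267 to 27183692 per library, so every synthetase but SARS2 had at least 72 counts in each library (SARS2 had 44 to 103). Libraries of the same group differed by more than counting error (lowest chi-square over its degrees of freedom 10.9), so each counted as 1 replicate. The series describes them as independent experiments. P-values of fits with the group as the only term measure the spread between libraries of the same group. Those of fits that pair libraries by replicate number measure the spread left after that pairing. In both groups the libraries of replicates 3 and 4 stood apart from those of replicates 1 and 2. The labels do not give this division, which was seen in the expression data. Epithelial markers were present, with a summed level over 9 genes of 5117 to 7231 CPM (counts scaled to library size) in controls and 3839 to 4298 CPM in treated cultures. Among them KRT8, KRT19 and KRT7 had the highest control means (1804, 1569 and 1330 CPM) and TP63 the lowest (0.766 CPM). Fibroblast, endothelial and leukocyte markers summed to at most 27.01, 5.67 and 5.58 CPM, mostly from COL1A1, CDH5 and CSF1R, and 0 of these markers were at 0 in every library. PTPRC, the pan-leukocyte marker, averaged 0.0687 CPM over the controls. In edgeR with libraries paired by replicate number, 3 of the 9 epithelial markers fell at an adjusted p below 0.05 (KRT5, KRT8 and KRT19). There 1 rose (GATA3, log2 change 0.52) and 5 did not pass, and of all genes 7.51% rose and 6.97% fell. When edgeR used the division above in place of pairing, KRT8 (adjusted p = 0.0998) and GATA3 (0.0614) did not pass. KRT5 and KRT19 still passed, as did 3.72% of all genes higher and 3.07% lower. CSF1R passed as lower in both fits. All treated cultures were below all controls for KRT5, KRT8, KRT19 and CSF1R, as for 2.6% of all genes. The part of these marker differences in the results below was not tested.

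The short sequences below carry the amino acid response motif TGATGNAA, searched on both strands in the 300 bases around RefSeq gene starts (250 before and 50 after, build GRCh38.p14). They are shown because the synthetases that hold it can be set beside those whose levels moved. Of the 36 genes, 30 were in that table under their current symbols. DARS, LARS, VARS, YARS, AARS2 and VARS2 were not matched. The motif was found for 7 of 16 cytosolic genes and 1 of 14 mitochondrial genes, against 4.46% of all 27305 genes in the table and 3.62% of its 35116 windows. In the form TGATGCAA it was found for 6 cytosolic and 0 mitochondrial genes, against 1.08% of all genes. Each line gives 30 bases on the gene's strand from 5′ to 3′, with the matched bases in capitals. TTGCATCA is TGATGCAA read on the other strand.
AARS, chr16:70289675-70289704, minus strand, 187 bases before the start: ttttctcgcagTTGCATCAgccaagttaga
CARS, chr11:3057407-3057436, minus strand, 2 bases before the start: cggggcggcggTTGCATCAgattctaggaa
GARS, chr7:30594834-30594863, plus strand, 33 bases before the start: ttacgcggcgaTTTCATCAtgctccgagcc
IARS, chr9:92293692-92293721, minus strand, 13 bases before the start: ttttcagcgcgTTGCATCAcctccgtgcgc
MARS, chr12:57488053-57488082, plus strand, 4 bases before the start: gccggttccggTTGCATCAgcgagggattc
NARS, chr18:57621804-57621833, minus strand, 14 bases after the start: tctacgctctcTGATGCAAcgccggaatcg
TARS, chr5:33440956-33440985, plus strand, 2 bases after the start: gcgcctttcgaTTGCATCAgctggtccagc
YARS2, chr12:32756076-32756105, minus strand, 197 bases before the start: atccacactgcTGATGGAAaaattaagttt

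WARS, whose level moved most, held no TGATGNAA in either of its windows. It held the interferon-stimulated response motif (GAAA, any 2 bases, GAAA) 55 bases before 1 of its RefSeq starts, and the interferon gamma activation motif TTCNNNGAA 142 bases before the same start. The first of these was found for 4.38% of all genes in the table and for 1 other member, EARS2, and the second for 9.38% of all genes and for CARS, TARS, PARS2 and WARS2. Both were searched on both strands, and neither match overlaps the other.
WARS, interferon-stimulated response motif, chr14:100375383-100375412, minus strand: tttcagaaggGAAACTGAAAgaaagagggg
WARS, TTCNNNGAA, chr14:100375470-100375499, minus strand: gctcaagtgtTTCTGAGAAtctgggtgatt
These matches describe the letters of the windows. They do not show that a factor binds there.

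With libraries of the same replicate number paired, a few cytosolic synthetases rose after glucose oxidase and 1 mitochondrial synthetase fell, while without pairing no synthetase passed. Of the 20 cytosolic genes 5 rose (WARS, YARS, GARS, AARS and MARS), 0 fell and 15 did not pass. Of the 16 mitochondrial genes 0 rose, 1 fell (CARS2) and 15 did not pass. Over all 17413 genes tested, 7.51% rose and 6.97% fell. "Rose" and "fell" mean an adjusted p below 0.05 in edgeR when the replicate number enters as a block. The difference in counts between the compartments was not itself tested. The median log2 change was 0.27 for cytosolic genes, 0.04 for mitochondrial genes and -0.01 for all genes tested. In pairs 1 to 4 taken singly the cytosolic median was -0.02, 0.31, 0.12 and 0.10. The mitochondrial median was 0.01, 0.11, -0.12 and -0.10 in the same pairs. With the block, the cytosolic median was 0.15 under a correction for gene length. Under total counts it was 0.38, where that of all genes was 0.10. In edgeR without the block 0% of all genes passed in either direction. There 0 of the 36 synthetases had even an unadjusted p under 0.05 (7.37% of all genes did), and DESeq2 without a block also called 0 synthetases, against 0.218% of genes higher and 0.287% lower.

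**Figure D1:**
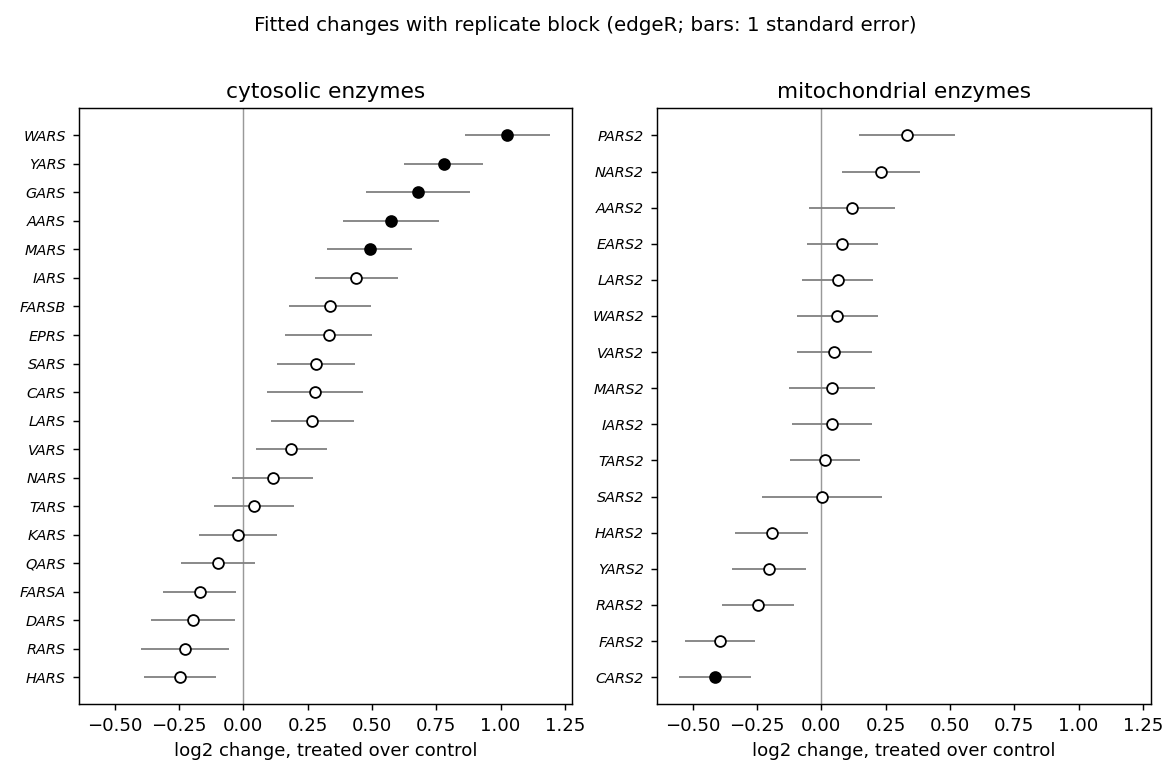
Fitted log2 change of each synthetase under the replicate block (edgeR, bars of 1 standard error), cytosolic enzymes on the left and mitochondrial enzymes on the right; filled points have an adjusted p below 0.05. WARS lies at 1.03 and CARS2 at -0.41, and 14 of 20 cytosolic and 11 of 16 mitochondrial points lie above 0.

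A second fit replaced the block by a term for replicates 1 and 2 against 3 and 4, the larger division among the libraries. It called 2 cytosolic genes higher, WARS and YARS, and 0 mitochondrial genes, against 3.72% of all genes higher and 3.07% lower. In that fit GARS (edgeR adjusted p = 0.0686), CARS2 (0.0742), AARS (0.0912) and MARS (0.0923) did not pass.

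WARS, the cytosolic tryptophan synthetase (ENSG00000140105, chromosome 14, 100333788 to 100376805, minus strand, GRCh38), had the largest fitted increase of the 36. Its level was 356.5, 383.5, 92.7 and 112.4 CPM in controls 1 to 4 and 516.5, 808.8, 249.8 and 235.7 CPM in treated cultures 1 to 4. Every treated culture was above its own-number control, but the groups overlap, since treated cultures 3 and 4 were below controls 1 and 2. The group means were 236 ± 155 and 453 ± 270 CPM (SD, n = 4). The log2 change was 1.03 (SE 0.17, edgeR with block, adjusted p = 0.000208), or 2.04-fold. The adjusted p was 0.694 in edgeR without the block. Exons of WDR25 on the other strand cover 4.51% of its exon bases. That gene had a mean of 220.4 counts against 8690 for WARS, and whether counting used strand is not known.

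YARS, the cytosolic tyrosine synthetase (ENSG00000134684, chromosome 1, 32775237 to 32818153, minus strand), showed the same arrangement at a lower level. Controls 1 to 4 were at 159.9, 186.9, 41.1 and 52.0 CPM and treated cultures 1 to 4 at 209.7, 310.9, 96.8 and 88.5 CPM. All 4 pairs went up, and again replicates 3 and 4 of both groups were below every library of replicates 1 and 2. The group means were 110 ± 74.2 and 176 ± 105 CPM, and the log2 change was 0.78 (SE 0.15, edgeR with block, adjusted p = 0.00145), or 1.72-fold. Exons of S100PBP on the other strand, a gene with a mean of 1249 counts against 3604 for YARS, cover 4.82% of its exon bases. WARS and YARS were the synthetases called under every blocked alternative, with adjusted p of at most 0.0159 and 0.0256.

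GARS, which charges glycine tRNA in both compartments (ENSG00000106105, chromosome 7, 30594681 to 30634033, plus strand), rose through replicates 2 to 4. It was at 404.0, 318.4, 58.5 and 73.6 CPM in controls 1 to 4, and at 313.2, 481.5, 162.1 and 148.9 CPM in treated cultures 1 to 4. Pair 1 went down, and the other 3 pairs went up. Without the block its log2 change was 0.37, and -0.03 when treated replicate 2 was left out. The group means were 214 ± 174 and 276 ± 156 CPM, and the log2 change was 0.68 (SE 0.20, edgeR with block, adjusted p = 0.0229). DESeq2 with the block, which called 8.03% of all genes higher and 9.51% lower, did not call it (adjusted p = 0.216).

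AARS, the cytosolic alanine synthetase (ENSG00000090861, chromosome 16, 70252295 to 70289543, minus strand), was at 611.5, 464.6, 108.3 and 125.5 CPM in controls 1 to 4. Treated cultures 1 to 4 were at 506.0, 655.2, 243.2 and 233.9 CPM. As for GARS, pair 1 went down and the rest went up, and the spread among controls (5.65-fold from lowest to highest) exceeded the fitted change of 1.49-fold. The group means were 327 ± 251 and 410 ± 207 CPM, and the log2 change was 0.57 (SE 0.19, edgeR with block, adjusted p = 0.0386).

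MARS, the cytosolic methionine synthetase (ENSG00000166986, chromosome 12, 57475445 to 57517569, plus strand) and a member of the multi-synthetase complex, was at 169.7, 166.9, 45.3 and 53.4 CPM in controls 1 to 4. Treated cultures 1 to 4 were at 156.6, 200.2, 94.1 and 91.7 CPM. The group means were 109 ± 68.8 and 136 ± 52.5 CPM, and the log2 change was 0.49 (SE 0.17, edgeR with block, adjusted p = 0.046), and pair 1 again went down. With a correction for gene length, under which 5.86% of all genes passed higher and 6.74% lower, MARS (edgeR adjusted p = 0.109) and AARS (0.0511) lost their call. MARS shares 5.05% of its exon bases with DDIT3 on the other strand, a stress-response gene with a mean of 615.4 counts against 3043 for MARS. Whether reads of DDIT3 entered the MARS count was not tested.

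Leaving out both libraries of replicate 3, or of replicate 4, ended the calls of AARS, GARS and MARS (adjusted p of 0.194 to 0.331 in edgeR with the block), and leaving out replicate 2 ended that of AARS (0.0624). WARS and YARS passed each time.

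**Figure D2:**
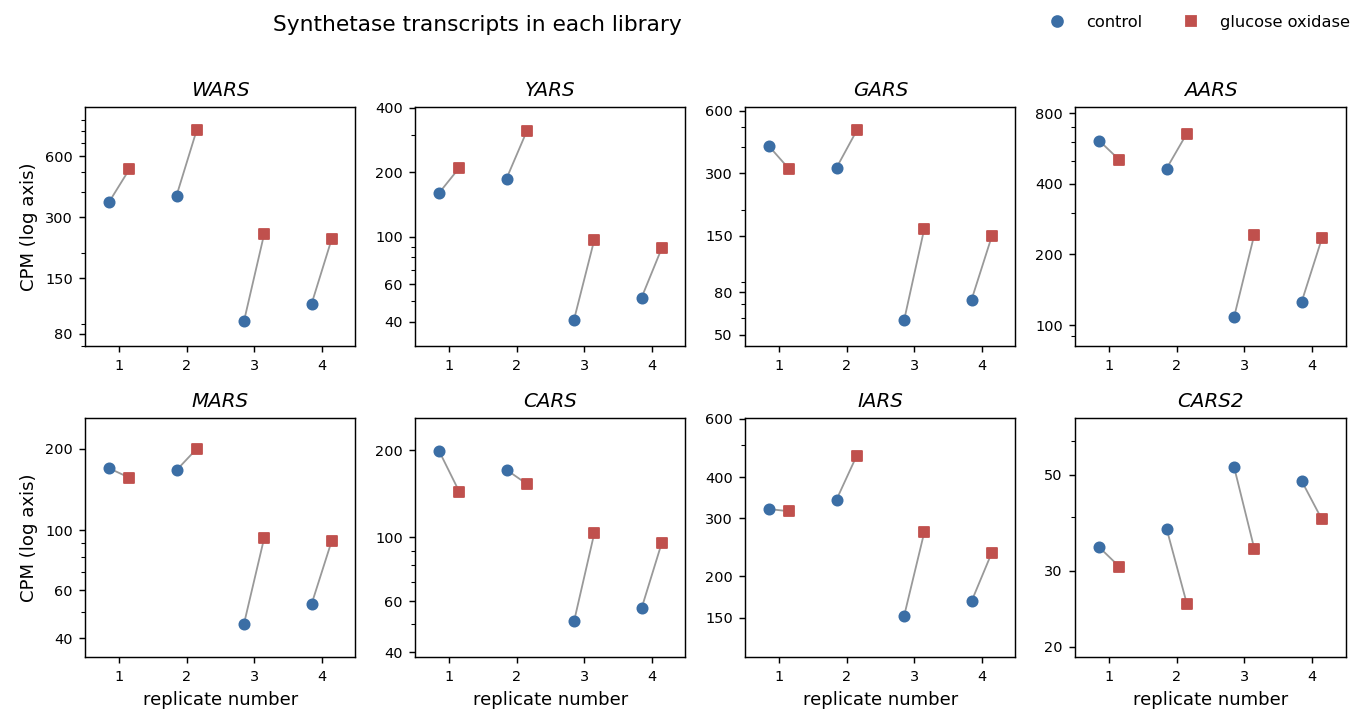
Level in CPM (log axis) of the 6 called synthetases and of CARS and IARS in each library, by replicate number, with circles for controls, squares for treated cultures and a line joining libraries of the same number. Apart from CARS2, every gene shown is lower in replicates 3 and 4 than in replicates 1 and 2 of the same group, and is higher in the treated than in the control library of replicates 3 and 4.

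The control cultures differed from each other more than treatment moved most of these genes. Of the 20 cytosolic genes 7 were at least 2-fold lower in the mean of controls 3 and 4 than in that of controls 1 and 2: GARS (5.47-fold), AARS (4.603-fold), YARS (3.73-fold), WARS (3.61-fold), CARS (3.42-fold), MARS (3.41-fold) and IARS (2.07-fold). Of all genes tested 13.4% were that much lower. In the other direction RARS (4.02-fold) and DARS (2.21-fold) were at least 2-fold higher in controls 3 and 4, as were 10.1% of all genes. Of the mitochondrial genes 0 were at least 2-fold lower and 2, FARS2 (2.13-fold) and YARS2 (2.09-fold), were at least 2-fold higher. These are descriptions, since the division was found in the data. All 5 synthetases that rose are among the 7 that were low in controls 3 and 4. The fitted changes rest on those same controls, so the 2 lists are not independent. Of those 7 genes 6 were in the promoter table and 5 of them held TGATGNAA, all but WARS. Of the other 13 cytosolic genes 10 were in the table and 2 of them, NARS and TARS, held it. In the form TGATGCAA the motif was found for 4 of those 6 genes and 2 of those 10. Of the 5 synthetases that rose 4 were in the table, 3 held TGATGNAA and 2 held TGATGCAA.

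**Figure D3:**
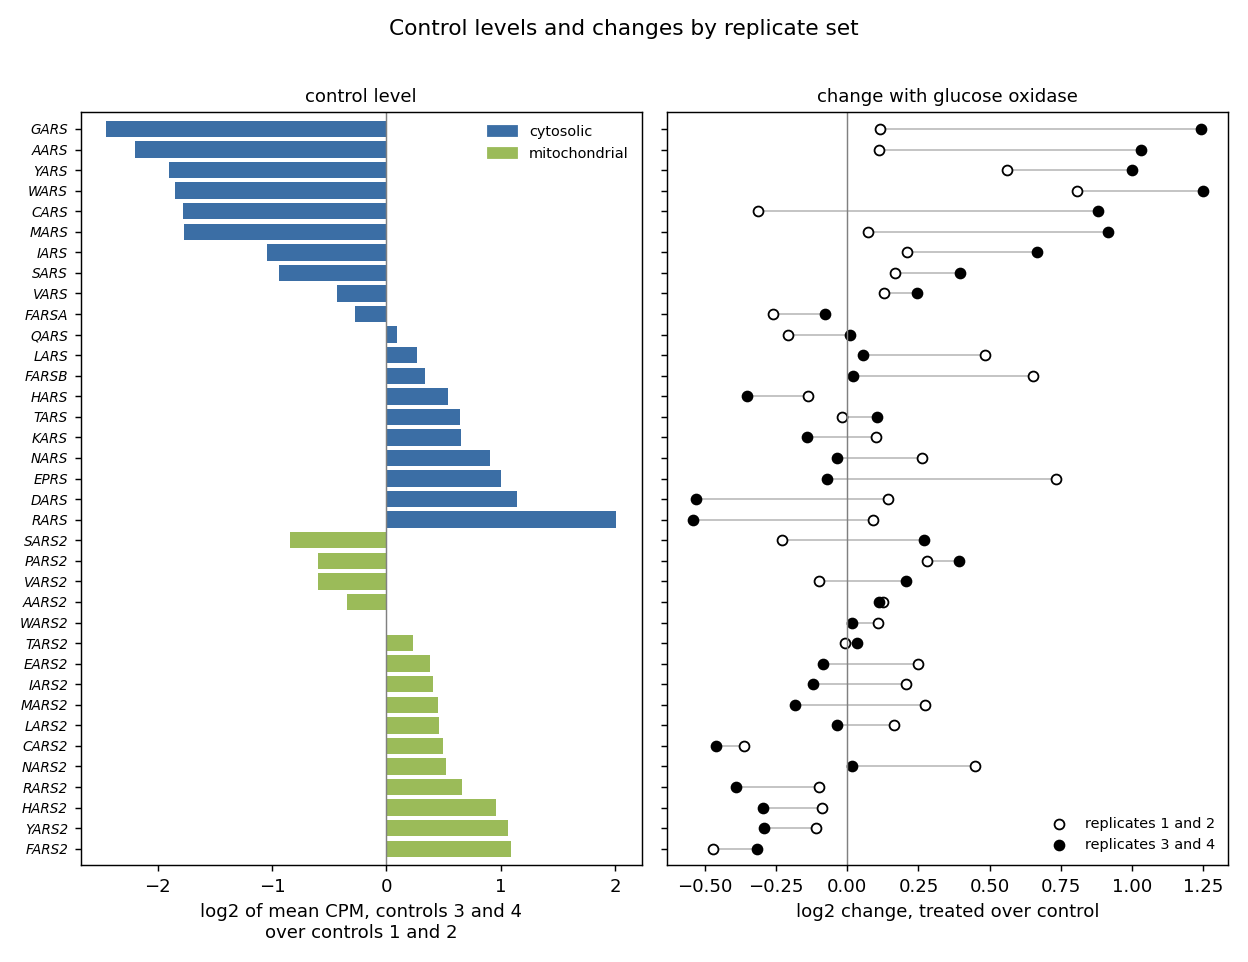
Left, log2 of the mean CPM of controls 3 and 4 over that of controls 1 and 2 for each synthetase; right, fitted log2 change with glucose oxidase in replicates 1 and 2 (open) and in replicates 3 and 4 (filled). GARS, AARS, YARS, WARS, CARS and MARS lie at -1.77 or lower on the left and at 0.88 or higher for replicates 3 and 4 on the right, and both panels share the control libraries.

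Within replicates 3 and 4 the fitted log2 changes were 1.25 for WARS, 1.24 for GARS, 1.03 for AARS, 1.00 for YARS, 0.92 for MARS, 0.88 for CARS and 0.67 for IARS. Within replicates 1 and 2 they were 0.81 for WARS and 0.56 for YARS, but 0.11 for GARS, 0.11 for AARS, 0.07 for MARS, 0.21 for IARS and -0.32 for CARS. The difference between the sets passed for 1 of the 36 synthetases, CARS. Over all genes it was higher in replicates 3 and 4 for 0.735% and lower for 0.167%. CARS, the cytosolic cysteine synthetase (ENSG00000110619, chromosome 11, 3000922 to 3057613, minus strand), was at 198.9, 171.0, 51.2 and 56.8 CPM in controls 1 to 4, and at 143.8, 152.9, 103.3 and 95.8 CPM in treated cultures 1 to 4. It went down in pairs 1 and 2 and up in pairs 3 and 4. The difference of its log2 changes was 1.197 (SE 0.26, edgeR with block, adjusted p = 0.0165), and with the set term in place of the block it did not pass (adjusted p = 0.12), as against 0.212% of all genes higher and 0.0172% lower. For GARS the difference had an adjusted p of 0.0769, for AARS 0.172 and for MARS 0.155, so these are not shown to differ between the sets.

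Of 8 amino acid response genes 5 rose and 0 fell in edgeR with the block: TRIB3 (log2 change 1.00, adjusted p = 0.003), SESN2 (0.99), ATF3 (1.11), CHAC1 (1.59) and, as the fifth, ASNS, asparagine synthetase (1.32). DESeq2 with the block called none of these 5 (adjusted p of 0.0957 for TRIB3 to 0.159 for ASNS), and with the set term 3 of the 8 passed in edgeR, TRIB3, SESN2 and ATF3. The fitted changes were unlike between the replicate sets, a division found in the expression values. In replicates 1 and 2 the log2 changes were 0.24 for TRIB3, 0.20 for SESN2, 0.18 for ATF3 and 0.08 for CHAC1, and in replicates 3 and 4 they were 1.77, 1.85, 2.13 and 3.68 in the same order. That difference passed for 6 of the 8 genes in edgeR with the block and for 5 with the set term, each larger in replicates 3 and 4. Of all genes 0.735% passed higher with the block and 0.212% with the set term. Controls 3 and 4 enter both the control levels and these changes, so low control levels and larger changes are not independent. CHAC1, a glutathione-degrading enzyme, averaged 78.4 CPM over controls 1 and 2, 2.49 CPM over controls 3 and 4, and 32.03 CPM over treated cultures 3 and 4. ATF4 itself averaged 1006 CPM over controls 1 and 2 and 425.6 CPM over controls 3 and 4, and its change did not pass (log2 change 0.21, edgeR with block, adjusted p = 0.476). Among 8 interferon gamma response genes 3 rose, 1 fell and 4 did not pass in edgeR with the block. Over all genes 7.51% rose and 6.97% fell. Those that rose included GBP5 (log2 change 2.14) and GBP4 (0.48), both guanylate-binding proteins. IDO1, a tryptophan-degrading enzyme, fell (-0.75). With the set term GBP5 and IDO1 passed, and GBP4 did not (adjusted p = 0.0533). GBP5 was scarce in controls (0.577 to 4.11 CPM). Its fitted increase was larger for numbers 3 and 4 (3.08) than for numbers 1 and 2 (1.44). That gap passed narrowly in edgeR with the block (adjusted p = 0.0488) but not with the set term (0.436). The part of these genes in the change of any synthetase was not tested.

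The 8 synthetases of the multi-synthetase complex, a cytosolic assembly that holds several enzymes on 3 scaffold proteins, mostly did not pass. MARS rose, and the other 7 did not pass. Of all 17413 genes tested 14892 did not pass either, and 7.51% rose. IARS, the isoleucine enzyme, had a log2 change of 0.44 (edgeR with block, adjusted p = 0.0648). It passed in DESeq2 with the block (adjusted p = 0.0357) and under total counts with the block (edgeR adjusted p = 0.0315, where 9.62% of all genes passed higher), but not with the set term (0.114). EPRS had a log2 change of 0.33 and LARS one of 0.27. QARS (-0.10) and KARS (-0.02) were within 1 standard error of 0. EPRS was at 183.4, 201.5, 410.1 and 359.3 CPM in controls 1 to 4, and at 295.6, 346.5, 388.8 and 343.5 CPM in treated cultures 1 to 4. It was higher in the treated culture of pairs 1 and 2 and lower in that of pairs 3 and 4. RARS, the arginine enzyme, was at 244.4, 189.8, 995.4 and 752.0 CPM in the controls and 241.5, 218.1, 606.2 and 581.8 CPM in treated cultures. Its order among the replicate sets was thus the opposite of that of MARS, and its change did not pass (log2 change -0.23, edgeR with block, adjusted p = 0.409). DARS, the aspartate enzyme, had a log2 change of -0.20 and was lower in the treated culture of pairs 2, 3 and 4. Of the scaffold proteins EEF1E1 fell (log2 change -0.41, edgeR with block, adjusted p = 0.0498, and 0.139 with the set term). AIMP1 (-0.19) and AIMP2 (-0.19) did not pass.

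Of the 12 cytosolic genes outside the complex 4 rose, and 8 did not pass: CARS, FARSA, FARSB, HARS, NARS, SARS, TARS and VARS. FARSA and FARSB, the subunits of the phenylalanine enzyme, had log2 changes of -0.17 and 0.34. SARS, the serine enzyme, was at 0.28, VARS, the valine enzyme, at 0.19, NARS, the asparagine enzyme, at 0.11 and TARS, the threonine enzyme, at 0.04. By active-site class, with EPRS counted in class I, 3 of 19 class I genes rose and 1 fell. Of 17 class II genes 2 rose and 0 fell. In each class 15 did not pass, and over all genes tested 7.51% rose and 6.97% fell.

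CARS2, the mitochondrial cysteine synthetase (ENSG00000134905, chromosome 13, 110641412 to 110713603, minus strand), was the single mitochondrial enzyme whose transcript passed. It was at 34.02, 37.5, 52.2 and 48.4 CPM in controls 1 to 4, and at 30.6, 25.2, 33.7 and 39.5 CPM in treated cultures 1 to 4. Every treated culture was below its own-number control, and the groups overlap at 34.02 to 39.5 CPM. The group means were 43.0 ± 8.65 and 32.2 ± 5.97 CPM, and the log2 change was -0.41 (SE 0.14, edgeR with block, adjusted p = 0.0446). The call was lost when any 1 replicate number was left out (adjusted p of 0.0526 to 0.232), with no filter on low counts (0.127) and under total counts (0.177), all in edgeR with the block. Exons of ING1 on the other strand, a gene with a mean of 602 counts against 881.6 for CARS2, cover 3.12% of the exon bases of CARS2. FARS2, the mitochondrial phenylalanine enzyme, was just outside the threshold (log2 change -0.39, edgeR with block, adjusted p = 0.0521). It passed in DESeq2 with the block (adjusted p = 0.0291) and with the correction for gene length (edgeR adjusted p = 0.0361). It did not pass with the set term (edgeR adjusted p = 0.107) or, with the block, under total counts (0.207) or with no filter (0.164). Leaving out 1 replicate number gave 0.0499 to 0.209 in edgeR with the block. FARS2 was also lower in all 4 treated cultures than in their own-number controls, as were 17.1% of all genes.

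The remaining 14 mitochondrial synthetases had log2 changes between -0.25 (RARS2) and 0.33 (PARS2) in the blocked fit. The counterparts of the strongest cytosolic responders did not pass. WARS2, the mitochondrial tryptophan enzyme (ENSG00000116874, chromosome 1, 119031216 to 119140671), was at 11.6, 11.1, 10.3 and 12.4 CPM in controls 1 to 4, and at 10.9, 13.8, 10.8 and 12.03 CPM in treated cultures. The groups overlap, with a log2 change of 0.06 (SE 0.16, edgeR with block, adjusted p = 0.838). YARS2, the mitochondrial tyrosine enzyme (ENSG00000139131, chromosome 12, 32727490 to 32755902), was at 17.5, 18.4, 41.4 and 33.6 CPM in the controls and at 19.2, 14.3, 29.4 and 31.5 CPM in treated cultures. It was higher in replicates 3 and 4, where YARS was lower, and its log2 change was -0.20 (adjusted p = 0.371). AARS2, the mitochondrial alanine enzyme (ENSG00000124608, chromosome 6, 44299654 to 44313326), was at 8.9, 12.1, 8.5 and 8.1 CPM in the controls and at 11.02, 11.8, 7.8 and 10.3 CPM in treated cultures, a log2 change of 0.12 (adjusted p = 0.697). GARS has no mitochondrial counterpart gene.

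The ratio of the cytosolic to the mitochondrial CPM was formed in each library for 14 pairs of genes, with FARSA standing for the cytosolic phenylalanine enzyme. EPRS, which faces both EARS2 and PARS2, was left out. It was higher in the treated culture of all 4 pairs for tryptophan, tyrosine, serine and phenylalanine, and lower in all 4 pairs for none. For phenylalanine both FARSA (log2 change -0.17) and FARS2 (-0.39) were lower in the treated culture of all 4 pairs. For tryptophan (WARS over WARS2) the ratio was 30.7, 34.5, 9.01 and 9.10 in controls 1 to 4 and 47.6, 58.5, 23.0 and 19.6 in treated cultures. For tyrosine (YARS over YARS2) it was 9.11, 10.2, 0.992 and 1.54 in controls and 10.9, 21.7, 3.29 and 2.81 in treated cultures. The groups overlapped for all 14 ratios, and no test was made of them.

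Levels per gene length (the authors' FPKM, fragments scaled to gene length and library size) put most cytosolic synthetases above most mitochondrial ones. Over all 4 controls RARS had the highest mean at 159.6 ± 117.9 FPKM, followed by NARS (102.3 ± 40.1), TARS (83.0 ± 25.8) and AARS (70.9 ± 53.5), and these neighbours did not differ beyond their SDs (n = 4). The order differed between the replicate sets: in controls 1 and 2 AARS (115.7 FPKM) and GARS (84.1 FPKM) were highest and RARS was at 61.4 FPKM, and in controls 3 and 4 RARS was at 257.8 FPKM and AARS at 26.2 FPKM. VARS was the lowest cytosolic gene at 5.596 ± 0.99 FPKM. The mitochondrial genes ran from IARS2 (30.6 ± 6.35 FPKM) and HARS2 (27.4 ± 11.5 FPKM) down to SARS2 (0.965 ± 0.30 FPKM). WARS was at 36.2 ± 23.1 FPKM in controls and 69.5 ± 40.3 FPKM in treated cultures. The ratio of control mean FPKM, cytosolic over mitochondrial, ran from 0.581 for the HARS pair to 57.2 for the SARS pair. The length is the sum of all annotated exons, used or not in these cells. SARS2 shares 46.2% of its exon bases with another annotated gene, AC011455.2, on the same strand and VARS2 22.0% with GTF2H4, so their levels are uncertain. SARS2 also shares 10.8% with MRPS12 on the other strand, a gene with a mean of 1763 counts against 76.4 for SARS2.

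**Figure D4:**
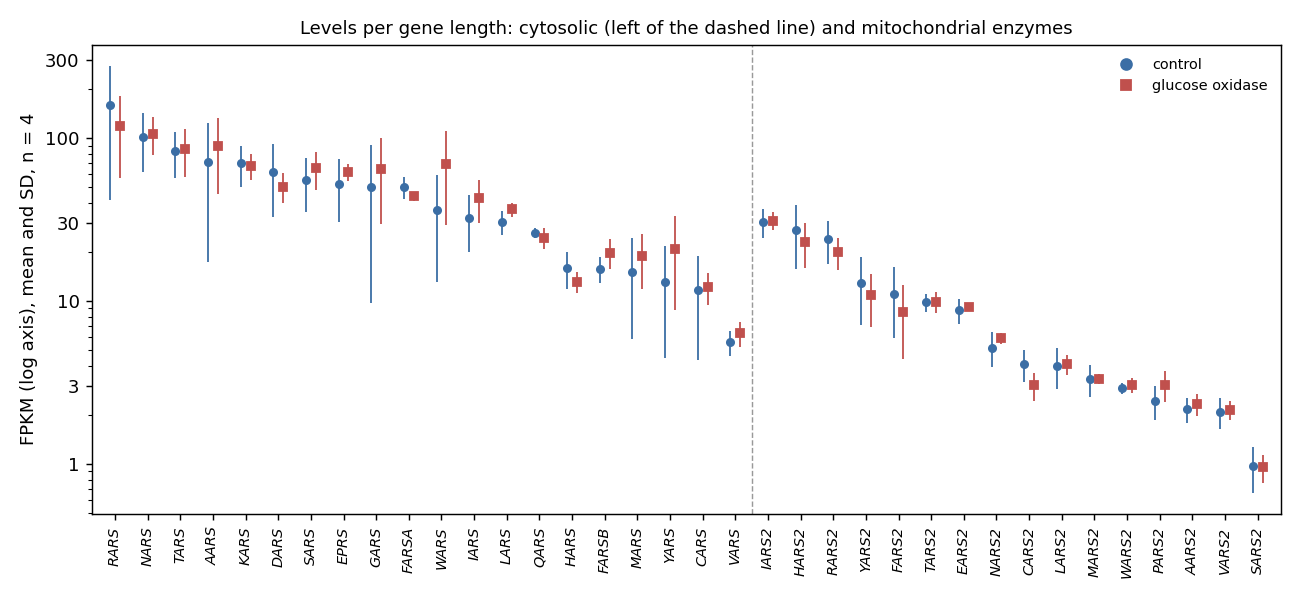
FPKM (log axis, mean and SD of 4 libraries) of each synthetase in control (circles) and treated (squares) cultures, ordered by the control mean within each compartment. RARS has the highest mean over 4 libraries in both groups (159.6 and 119.1 FPKM), through replicates 3 and 4, and SARS2 has the lowest control mean.

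The spread among controls differed from gene to gene. From the lowest to the highest control it was 6.91-fold for GARS, 5.65-fold for AARS and 5.24-fold for RARS, but 1.14-fold for QARS. Among treated cultures it was 3.23-fold for GARS, 2.80-fold for AARS and 2.78-fold for RARS.

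HARS and HARS2, the histidine enzymes of the cytosol and the mitochondrion, lie head to head on chromosome 5, with RefSeq starts 85 bases apart on opposite strands. HARS (140673904 to 140691862) was at 111.3, 94.3, 157.2 and 140.6 CPM in the controls and at 94.4, 91.9, 118.4 and 114.3 CPM in treated cultures. HARS2 (140691426 to 140699318) was at 81.4, 58.5, 150.4 and 120.8 CPM in the controls and at 67.2, 62.7, 110.9 and 108.7 CPM in treated cultures. Both were higher in replicates 3 and 4 than in 1 and 2, and their log2 changes of -0.25 and -0.19 did not pass (edgeR with block, adjusted p = 0.259 and 0.398). Their annotated exons share 437 bases, so their counts are not fully separate if strand was not used.

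Other genes of tRNA charging mostly did not pass, and 14892 of all 17413 genes tested did not either. Of 7 further charging and editing genes TARSL2, a second threonine synthetase, fell (log2 change -0.55, edgeR with block, adjusted p = 0.031). Mitochondria make their glutamine tRNA through EARS2 and a 3-subunit amidotransferase. Its subunit GATB fell, with means of 81.7 and 49.6 CPM (log2 change -0.67, edgeR with block, adjusted p = 0.0047, and 0.0301 with the set term), while GATC (-0.05), QRSL1 (0.03) and EARS2 (0.08) did not pass. Of 11 tRNA maturation genes XPOT, the nuclear exporter of tRNA, rose, with means of 139.2 and 201.7 CPM (log2 change 0.53, edgeR with block, adjusted p = 0.0136). It had all treated cultures above all controls, as 2.42% of genes did, and TSEN34, a tRNA splicing endonuclease subunit, fell (-0.46). Of 6 tested elongation factor genes EEF1D (-0.46) and TSFM (-0.43) fell and the other 4 did not pass. With the set term GATB and XPOT kept an adjusted p below 0.05, and TARSL2 (0.0524), EEF1D (0.0839), TSEN34 (0.0876) and TSFM (0.0996) did not.

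In the authors' deposited table the smallest adjusted p of any of the 36 synthetases was that of WARS, at 0.615 with a log2 fold change of 0.94. CARS2 followed with a log2 fold change of -0.42 and an adjusted p of 0.648.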

How the data were processed

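Reads were processed by the authors on GRCh38.p13 with DESeq2 1.20.0, featureCounts 1.5.0-p3 and HISAT2 2.0.5, per the submitters' processing notes, which give no roles. No strand setting is stated. The deposited counts are raw whole numbers per gene, and the deposited FPKM values are the authors' own. The authors' deposited comparison table holds size-factor-normalised signal, log2 fold changes and p-values.

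Counts were tested with edgeR 4.0.16 in R 4.3.3 (quasi-likelihood, TMM, filterByExpr, Benjamini-Hochberg over all 17413 genes), first with the group as the only term. Deviations from the group means (log2 CPM, prior count 2) of same-numbered libraries correlated at 0.532, 0.678, 0.590 and 0.503, all over 0.1, so a second fit blocked on the number. Control 3 correlated more with treated 4 (0.652) than with its own number, so another fit used replicates 1 and 2 against 3 and 4 as a term. Unlike numbers within the same set correlated at 0.443 to 0.652, also over 0.1. The rule thus cannot tell pairing by number from the division into these sets. A further fit tested the difference of the change between these sets. Alternatives used DESeq2 1.42.0 and limma 3.58.1. CPM are TMM-scaled, and SE is the log2 change over the square root of F. Fits were tested on simulated counts.

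The members and gene lists were chosen with earlier results of these data known. All called synthetases, and the counterparts of the 4 with the largest changes, are given in every library, and up to 4 called genes of each other list are named. Sequences are from RefSeq on GRCh38.p14, and the coordinates of genes are those of the deposited table. Some genes of the other lists are not reported here.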

Additional observations from a re-analysis of the deposited data

Results flagged for a closer look

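In treated replicate 2, FARSB, a subunit of the phenylalanine enzyme, was at 91.2 CPM against 59.7 to 61.1 CPM in the other 3 treated libraries. LARS, the leucine enzyme, was at 353.6 CPM in the same library against 281.0 to 288.7 CPM in the others. Each stood apart from the rest of its group by Dixon's criterion for 4 values. Of 72 such groups of 4 examined, 2 were so marked, and chance marks about 5%.

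The log2 change of CARS was 1.197 larger in replicates 3 and 4 (0.88) than in replicates 1 and 2 (-0.32). It was marked because the difference itself passed in edgeR with the block (adjusted p = 0.0165). The sets were found in the expression values.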

How the results depend on the processing

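edgeR without the block called 0 genes. The count stayed 0 with DESeq2 size factors, with total counts and without any 1 library, and 1284 genes had an unadjusted p under 0.05. With no filter on low counts it was 34 (18 higher, 16 lower), and DESeq2 without a block gave 88 (38 and 50). None of these called a synthetase. The replicate block gave 2521 genes (1308 higher, 1213 lower), 5 cytosolic synthetases higher and 1 mitochondrial lower. DESeq2 with the block gave 2640 (1209 and 1431), 5 and 2, total counts 2210 (1675 and 535), 6 and 0, no filter 2293 (1317 and 976), 5 and 0, and gene length offsets 2194 (1020 and 1174), 3 and 2. Limma on log2(FPKM + 1) gave 1024 (435 and 589), 2 and 0, on log2(FPKM + 0.1) 1073 (451 and 622), 2 and 0, and the set term 1182 (648 and 534), 2 and 0. Leaving out each library or replicate number gave 0 to 1886 genes (0 to 978 higher, 0 to 908 lower), 0 to 6 cytosolic and 0 to 1 mitochondrial synthetases. The difference between replicate sets passed for 157 genes and 1 synthetase, for 184 and 2 under total counts, and for 40 and 0 with the set term. Under total counts the median gene had a log2 change of 0.10. The cause of these shifts was not tested.

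Some log2 changes crossed 0, among them that of GARS, which rose under the block and was -0.0268 without treated replicate 2 and without the block, and that of RARS, 0.0601 without control replicate 3. KARS went from -0.04 to 0.09 under total counts (0.0896 with and 0.0891 without the block) and 0.0048 with no filter and the block, and QARS from -0.09 to 0.0116 and 0.0026 under total counts. With gene length offsets TARS was -0.0142, LARS2 -0.0143 and VARS2 -0.0609. TARS2 was -0.00036 in DESeq2 with the block. SARS2, at -0.03 without the block, was 0.0027 with it, 0.0105 with the set term, 0.109 and 0.0358 under total counts, 0.0061 and 0.0290 with no filter, 0.0525 with length offsets and 0.0086 on log2(FPKM + 0.1). Leaving out libraries gave CARS -0.195 to 0.547, GARS -0.0268 to 1.04, HARS2 -0.419 to 0.0101, IARS2 -0.131 to 0.138, KARS -0.144 to 0.102, LARS2 -0.0614 to 0.237, MARS2 -0.0788 to 0.142, NARS -0.0934 to 0.287, QARS -0.16 to 0.0069, RARS -0.675 to 0.0601, SARS2 -0.177 to 0.196, TARS -0.128 to 0.233, TARS2 -0.089 to 0.0829, VARS2 -0.0589 to 0.156, WARS2 -0.0076 to 0.132 and YARS2 -0.406 to 0.0297.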
